A study of Homo sapiens with 8 samples.

Results

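Intermediate filament genes were examined in RNA from MDA-MB-157, a human breast cancer cell line labelled as lacking the estrogen receptor. The 10 genes were taken by name from the 21059 genes of the deposited table, with earlier results of these data known. They were VIM, NES and SYNM, the keratins KRT7, KRT8, KRT18 and KRT19, and the lamins LMNA, LMNB1 and LMNB2. Cells were grown for 48 hours, and 4 libraries were sequenced from cells at 5 mM glucose (low) and 4 from cells at 25 mM (high), to ask which transcripts differ at a glucose level used as a model of diabetes. Per the study's methods, all cells were first conditioned in low glucose, and serum was left out during the treatment in both groups. None of the 8 libraries comes from an osmotic control, so glucose and osmolarity cannot be told apart, and 1 cell line was used. Whether the replicates came from separate flasks or experiments is not stated, so p-values measure only the spread between these libraries, which may be technical.

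Intermediate filaments are rope-like polymers of rod-shaped proteins that give cells and nuclei mechanical strength. Their makeup follows cell type: epithelial cells build filaments from pairs of an acidic and a basic keratin, mesenchymal cells from vimentin, and nearly every nucleus is lined by a lamina of A-type and B-type lamins. Breast carcinoma cells of luminal type carry KRT8, KRT18 and KRT19, whereas vimentin marks carcinoma cells with mesenchymal features.

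Values are CPM, read counts set to a common library size, which the authors scaled by the trimmed mean of M values, a method that sets libraries to a common level over most genes. Libraries held an estimated 9721649 to 12482542 reads, and a gene under 3 reads in a library, a floor equal to 0.212 to 0.267 CPM, was not counted as detected there. Reads carried no molecular identifiers and are not independent molecules, so the floor and the interval on reads given for KRT7 describe counting error alone. The labelled receptor status was checked on ESR1, the estrogen receptor, which was at or below 0.170 CPM in every library and so under the floor. The progesterone receptor gene PGR, set beside ESR1 as a check, was at 4.33 to 5.95 CPM, above the floor in every library. The epithelial cadherin CDH1 ranged from 0.330 to 1.41 CPM and the tight junction gene CLDN3 was at 0 in all 8 libraries. The blood cell marker PTPRC was at or below 0.178 CPM. Another blood cell marker, CD14, was at 0.801 to 1.58 CPM at low glucose and 2.76 to 5.79 CPM at high glucose. The endothelial marker PECAM1 was at 0.911 to 1.24 CPM at low glucose and 1.51 to 2.84 CPM at high glucose. VWF was at 1.33 to 1.53 CPM and 0 to 0.918 CPM in the same order, and CDH5 at 0.0849 to 0.364 CPM and 0 to 0.0825 CPM. High-glucose replicate 1 stood apart: over 11223 genes of at least 5 CPM, its deviation from the mean of its group followed transcript length with a Spearman coefficient of -0.65, against 0.25 to 0.47 in the other 3 high-glucose libraries and -0.13 to 0.06 at low glucose. Its values are given below for the filament genes.

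Of the 10 genes, 7 passed an adjusted p of 0.05 in limma, a linear model fitted across all genes, where 46.8% of all genes tested did. The 4 that fell at high glucose were VIM, NES, KRT8 and KRT18, and the 3 that rose were KRT7, LMNB1 and LMNB2, while KRT19, LMNA and SYNM did not pass. Over all genes, 24.8% were called lower and 22.0% higher. The 4 lower calls held when any single library was left out, but only 1 gene, LMNB2, was called higher without low-glucose replicate 1 or 4 or high-glucose replicate 1. The groups did not overlap for 6 of the 10 genes, where 44.5% of all genes had groups that did not overlap. Low values weigh on these shares: among genes with a mean of at least 5 CPM, 66.9% were called (33.6% higher and 33.3% lower) and 65.0% had groups that did not overlap, beside 6 of the 8 filament genes at that level for both. The median log2 change of the 10 genes was -0.03 on the log2(CPM + 1) scale, beside -0.01 over all genes, with the called cytoplasmic genes of at least 5 CPM all lower and the called lamins all higher. In bulk RNA, fewer cells of a type and less RNA per cell cannot be told apart.

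**Figure D1:**
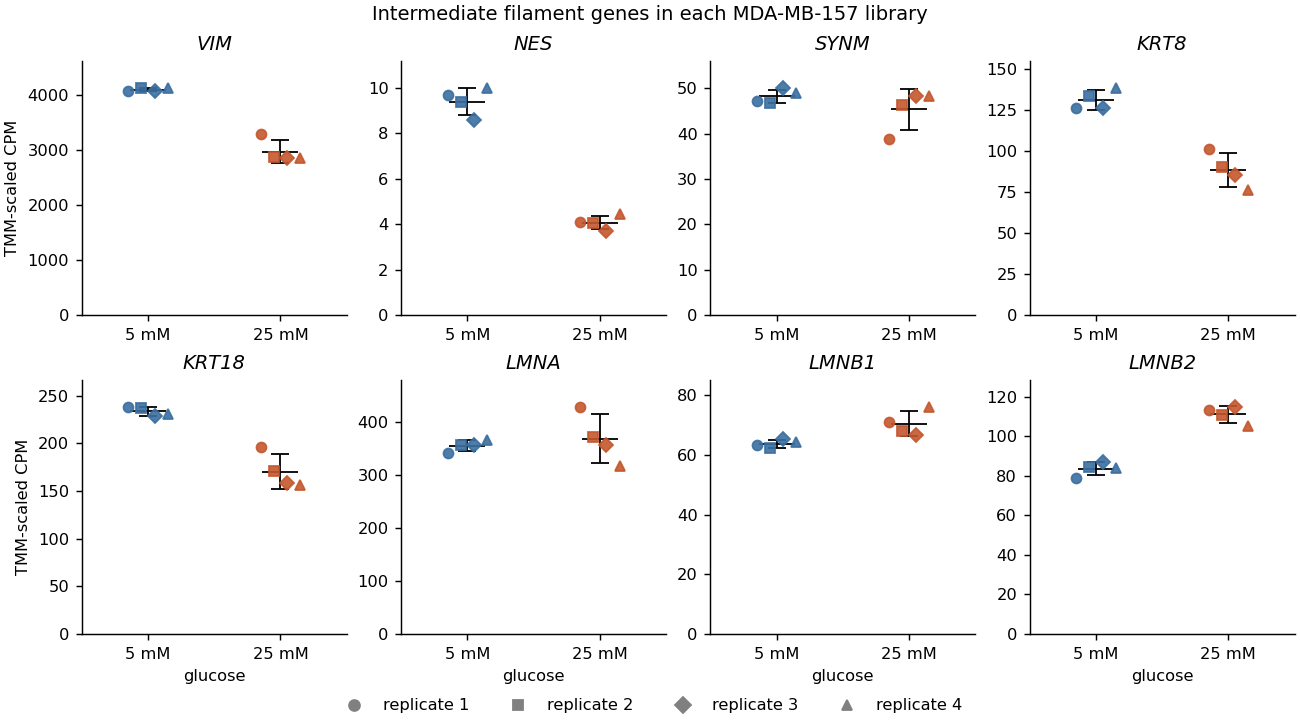
CPM of the 8 filament genes above 1 CPM in each library at 5 mM and 25 mM glucose, with 1 point per library, the horizontal line at the group mean and the bar spanning 1 SD on each side (n = 4). The low- and high-glucose points are fully apart for VIM, NES, KRT8 and KRT18, which are lower at 25 mM, and for LMNB1 and LMNB2, which are higher.

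VIM encodes vimentin, the type III filament protein of mesenchymal cells, and lies on chromosome 10 from 17228241 to 17237593 on the plus strand (RefSeq, GRCh38.p14). At low glucose the 4 libraries held 4060, 4116, 4073 and 4114 CPM. At high glucose they held 3282, 2869, 2860 and 2856 CPM. All high-glucose libraries were below all low-glucose libraries, and high-glucose replicate 1 was the highest of its group, at 1.15 times the mean of the other 3. The mean fell by 27.5%, from 4091 ± 28.5 to 2967 ± 210 CPM (SD, n = 4), a log2 change of -0.47 (SE 0.078, 95% interval -0.65 to -0.28, limma adjusted p = 0.00224). VIM made up 0.461% to 0.468% of the table's total in low glucose and between 0.331% and 0.372% in high glucose. In mean CPM it ranked 5 among all genes. Exons of the antisense gene VIM-AS1 and of another transcript on the opposite strand overlap 45.6% of the VIM transcript, and whether the counting used strand is not given in the sources used here. VIM-AS1 was at 1.77 ± 0.110 CPM at low glucose and 2.15 ± 0.411 CPM at high glucose (limma adjusted p = 0.204), a far lower level than that of VIM.

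NES encodes nestin, a long filament protein of progenitor and endothelial cells that needs vimentin or a like partner to polymerise. It lies on chromosome 1 from 156668763 to 156677407 on the minus strand. The low-glucose libraries held 9.67, 9.36, 8.58 and 9.98 CPM and the high-glucose libraries 4.09, 4.07, 3.71 and 4.44 CPM. The groups were fully apart, with every high-glucose value far below the lowest at low glucose. The mean fell by 56.6%, from 9.40 ± 0.601 to 4.08 ± 0.299 CPM, a log2 change of -1.03 (SE 0.070, 95% interval -1.20 to -0.87, limma adjusted p = 2.9e-05). This was the largest change among the 10 genes on this scale, and it lay outside the range from -0.91 to 0.88 that held the central 90% of genes with at least 5 CPM. High-glucose replicate 1 was at 1.01 times the mean of the other 3.

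SYNM encodes synemin, a large filament protein that joins vimentin filaments to adhesion sites, on chromosome 15 from 99105080 to 99141767. The low-glucose libraries held 47.3, 46.8, 49.98 and 48.9 CPM and the high-glucose libraries 38.7, 46.4, 48.2 and 48.2 CPM. The groups overlapped, and the lowest of all 8 values came from high-glucose replicate 1. The log2 change was -0.09 (SE 0.072, 95% interval -0.26 to 0.08, limma adjusted p = 0.355), so a fall of the size seen for VIM lies outside the interval. Without high-glucose replicate 1 it was -0.019. Antisense exons overlap 29.4% of the SYNM transcript.

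The stretches before the start sites of VIM, NES and LMNB2 are shown because these 3 genes carried the clearest changes of the non-keratin genes, the first 2 downward and the last upward. Each is the 250 bases upstream of the RefSeq start on GRCh38.p14, at chr10:17227991-17228240 (plus strand) for VIM, chr1:156677408-156677657 (minus strand) for NES and chr19:2456960-2457209 (minus strand) for LMNB2. Capitals mark GC boxes, the letters GGGCGG or, on the other strand, CCGCCC, which are known to bind SP family factors.
VIM: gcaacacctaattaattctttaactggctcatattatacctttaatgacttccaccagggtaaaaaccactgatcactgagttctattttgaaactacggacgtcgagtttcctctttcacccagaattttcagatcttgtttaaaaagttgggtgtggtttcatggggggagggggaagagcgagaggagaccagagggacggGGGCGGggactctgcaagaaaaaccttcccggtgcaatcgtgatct
NES: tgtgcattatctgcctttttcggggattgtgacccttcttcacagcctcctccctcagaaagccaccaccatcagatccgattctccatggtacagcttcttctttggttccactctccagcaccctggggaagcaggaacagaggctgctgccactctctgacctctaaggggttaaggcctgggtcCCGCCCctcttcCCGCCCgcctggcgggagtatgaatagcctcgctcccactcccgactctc
LMNB2: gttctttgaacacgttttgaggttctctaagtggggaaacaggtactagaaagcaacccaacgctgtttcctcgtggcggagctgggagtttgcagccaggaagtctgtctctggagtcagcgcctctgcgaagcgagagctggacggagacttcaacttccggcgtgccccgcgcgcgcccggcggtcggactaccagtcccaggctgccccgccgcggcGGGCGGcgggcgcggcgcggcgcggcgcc
The GC box stood 46 bases before the start in VIM, 62 and 50 bases before it in NES and 29 bases before it in LMNB2. Of all 35116 promoter windows in the table, 42.6% held this motif within the same length. The TATA box (TATAAA), the box known to bind ZEB and SNAIL factors (CACCTG), the AP-1 site (TGANTCA) and the palindromic E-box (CACGTG) were sought on both strands as well. None of these letters stood in the 3 windows, whereas 10.7%, 17.5%, 6.57% and 6.34% of all windows held them. Of the 10 genes, 7 matched an entry in the promoter table.

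KRT8 and KRT18 encode the basic and the acidic keratin of simple epithelia, which polymerise with each other, and are neighbours on chromosome 12. KRT8 spans 52897191 to 52949860 on the minus strand and KRT18 spans 52948855 to 52952906 on the plus strand, so that 26.5% of the KRT18 transcript overlaps exons of KRT8. Both fell at high glucose with no overlap between the groups.

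For KRT8, the low-glucose libraries held 126, 133, 126 and 138 CPM and the high-glucose libraries 101, 90.4, 85.4 and 76.4 CPM. The high-glucose values were spread more widely, with replicate 1 nearest to the low-glucose group. The mean fell by 32.5%, from 131 ± 5.95 to 88.3 ± 10.3 CPM, a log2 change of -0.57 (SE 0.083, 95% interval -0.76 to -0.37, limma adjusted p = 0.00117). For KRT18, the low-glucose libraries held 238, 237, 228 and 231 CPM and the high-glucose libraries 196, 170.5, 158 and 156 CPM. Again replicate 1 was the highest of the high-glucose group, at 1.21 times the mean of the other 3. The mean fell by 27.1%, from 233.5 ± 4.85 to 170.1 ± 18.1 CPM, a log2 change of -0.46 (SE 0.071, 95% interval -0.63 to -0.29, limma adjusted p = 0.00149).

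Both keratins have many processed pseudogenes, and their values are uncertain to that degree: 59.8% of the 31-base words of the KRT8 transcript and 68.9% of those of KRT18 also occur in transcripts of other genes, 60 and 76 genes respectively. The only pseudogene row above 1 CPM was KRT8P12, at 8.16 ± 0.145 CPM at low glucose and 8.34 ± 0.838 CPM at high glucose, with groups that overlapped (log2 change 0.02, 95% interval -0.14 to 0.19, limma adjusted p = 0.832). The interval of KRT8P12 lay above the interval of KRT8. The other 8 KRT8 and KRT18 pseudogene rows were below 1 CPM on average.

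KRT7 and KRT19, the other keratins of simple and glandular epithelium, were at the edge of detection or under it. KRT7, on chromosome 12 from 52233243 to 52255853, was at 0.167, 0.248, 0 and 0 CPM at low glucose and 0.635, 0.478, 0.660 and 0.178 CPM at high glucose. These values correspond to 2, 3, 0 and 0 reads against 9, 6, 8 and 2 reads, so that 3 of 4 high-glucose libraries were above the floor. Low-glucose replicate 2 stood exactly at the floor, with 3 reads, and the other low-glucose libraries were under it. Summed over libraries, 5 reads stood against 25, a ratio of 4.95 after allowing for depth (exact 95% interval 1.86 to 16.6, counting error only). In limma the log2 change was 0.42 (SE 0.13, adjusted p = 0.0313), on a scale that understates changes of low genes. The groups overlapped and the call was lost when any of 6 of the 8 libraries was left out (adjusted p = 0.0516 to 0.0806). KRT19, on chromosome 17 from 41523617 to 41528308, had at most 1 read in any library, at 0, 0, 0 and 0.0728 CPM at low glucose and 0, 0.0797, 0.0825 and 0 CPM at high glucose. It was below the floor in all 8 libraries, and no fold is given.

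LMNA encodes the A-type lamins A and C, which stiffen the nucleus, on chromosome 1 from 156082573 to 156140081. The low-glucose libraries held 341, 356, 357 and 365 CPM and the high-glucose libraries 428, 372, 356 and 317 CPM. The high-glucose values lay on both sides of the low-glucose ones, with replicate 1 the highest of all 8 and replicate 4 the lowest. The mean was 355 ± 10.1 CPM at low glucose and 368 ± 46.3 CPM at high glucose (log2 change 0.05, 95% interval -0.16 to 0.25, limma adjusted p = 0.721). The sign turned, to -0.030, when high-glucose replicate 1 was left out.

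LMNB1 encodes lamin B1, a B-type lamin that stays farnesylated and bound to the inner nuclear membrane, on chromosome 5 from 126776623 to 126837020. The low-glucose libraries held 63.3, 62.2, 65.2 and 64.4 CPM and the high-glucose libraries 70.9, 67.99, 66.6 and 76.1 CPM. The groups did not overlap, though the lowest high-glucose library was close to the highest low-glucose one. The mean rose by 10.4%, from 63.8 ± 1.32 to 70.4 ± 4.18 CPM, a log2 change of 0.14 (SE 0.042, 95% interval 0.04 to 0.24, limma adjusted p = 0.0309). Leaving out low-glucose replicate 1, 2 or 4 or high-glucose replicate 1 took the adjusted p to between 0.0599 and 0.0792, with changes of 0.13 to 0.14.

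LMNB2 encodes lamin B2, the other B-type lamin, on chromosome 19 from 2428166 to 2456959 on the minus strand, and its upstream sequence is printed above. The low-glucose libraries held 79.0, 84.3, 86.8 and 83.8 CPM and the high-glucose libraries 113.5, 110.6, 114.9 and 105.3 CPM. Every high-glucose library was above every low-glucose library, and replicate 1 lay within the range of its group. The mean rose by 33.1%, from 83.5 ± 3.26 to 111 ± 4.24 CPM, a log2 change of 0.41 (SE 0.038, 95% interval 0.32 to 0.50, limma adjusted p = 1.2e-04). No 31-base word of LMNA, LMNB1 or LMNB2 occurs in a transcript of another gene.

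**Figure D2:**
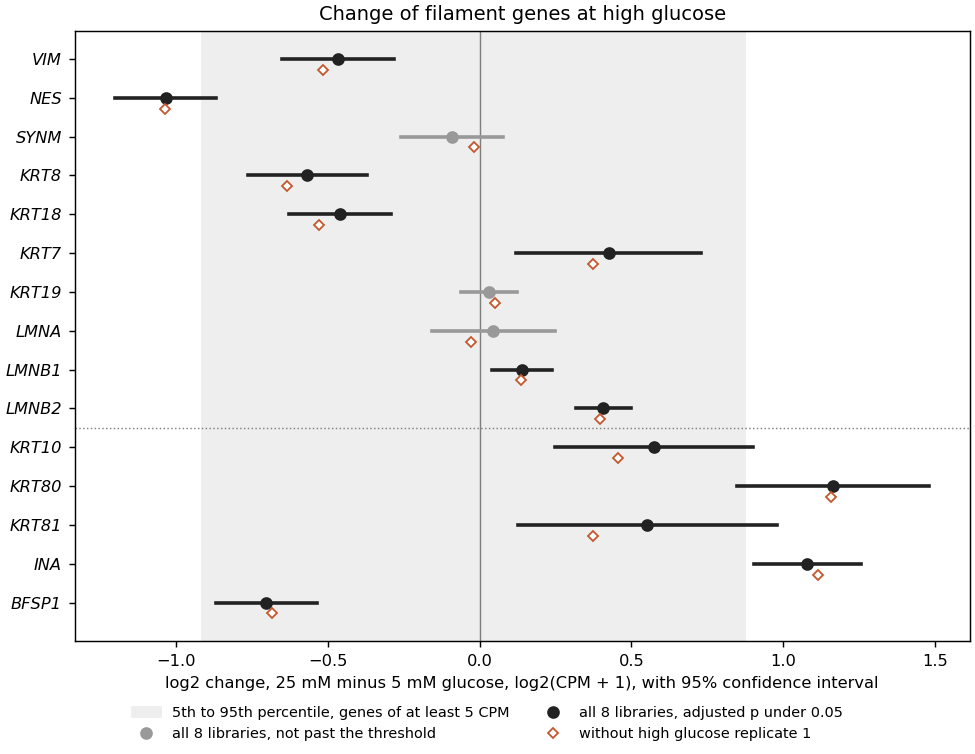
Log2 change of the 10 filament genes and, below the dotted line, 5 other filament genes at 25 mM against 5 mM glucose on the log2(CPM + 1) scale, with 95% intervals from limma (n = 4 per group), open diamonds for the value without high-glucose replicate 1 and a grey band for the central 90% of genes of at least 5 CPM. NES lies furthest to the left at -1.03, and LMNB2, at 0.41, has a narrow interval entirely above 0.

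To compare levels between genes, CPM was divided by the length of the canonical transcript. At low glucose VIM stood at 1899 ± 13.2 CPM per kb, KRT18 at 165 ± 3.43, LMNA at 112 ± 3.19 and KRT8 at 73.3 ± 3.34. LMNB1 at 22.1 ± 0.458 and LMNB2 at 18.0 ± 0.703 followed, then SYNM at 6.56 ± 0.200 and NES at 1.69 ± 0.108, with KRT7 and KRT19 last. Neighbours in this order did not overlap at low glucose except KRT7 and KRT19. At high glucose the order was kept, with VIM at 1377 ± 97.7 CPM per kb, but KRT18 at 120 ± 12.8 overlapped LMNA at 116 ± 14.6, and LMNB1 at 24.4 ± 1.45 overlapped LMNB2 at 24.0 ± 0.914. VIM held 82.5% to 82.8% of the summed level of the 10 genes in low glucose and between 79.5% and 81.1% in high glucose, and the 4 keratins held 10.2% to 10.5% and 9.39% to 10.2%.

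**Figure D3:**
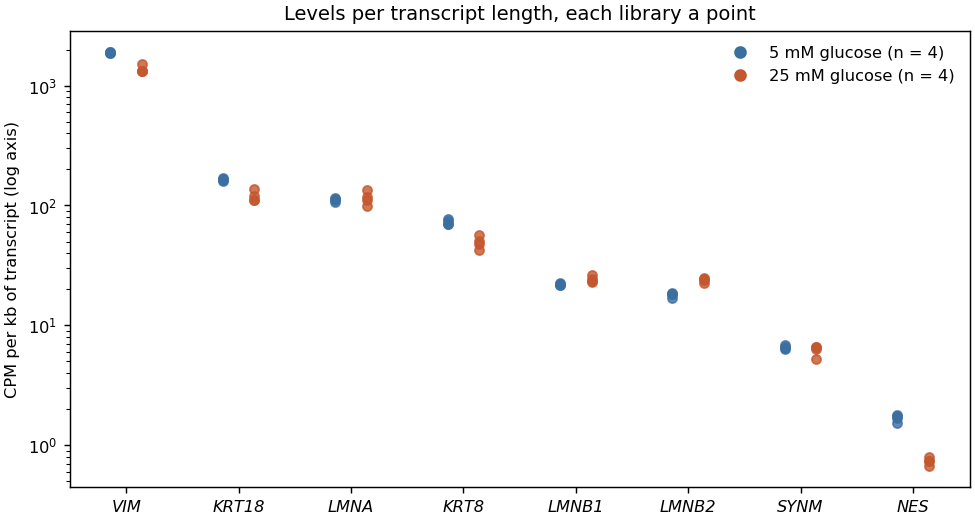
CPM per kilobase of canonical transcript for the 8 filament genes above 1 CPM at 5 mM and 25 mM glucose, on a log axis, with 1 point per library. VIM lies above all other genes in all 8 libraries, at 1326 to 1911 CPM per kb.

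Ratios between genes that work together were compared on the log2 scale by an exact permutation test (2-sided) over the 70 assignments of the 8 libraries, whose smallest possible p is 0.0286, and adjusted over the 4 ratios. The ratio of KRT8 to KRT18, the partners of the simple keratin pair, was 0.560 ± 0.0288 at low glucose and 0.519 ± 0.0219 at high glucose (exact p = 0.0857, adjusted 0.114), so a change in the pair's balance was not shown. The ratio of LMNB1 to LMNA was 0.180 ± 0.00522 and 0.194 ± 0.0322 (exact p = 0.600, adjusted 0.600), with overlapping groups. The ratio of LMNB2 to LMNB1 was higher in every high-glucose library, at 1.31 ± 0.0458 against 1.58 ± 0.143, and NES relative to VIM was lower in every high-glucose library, at 0.00230 ± 0.000142 against 0.00138 ± 0.000138. Both had an exact p of 0.0286, the smallest possible, and an adjusted p of 0.0571, so neither passed after adjustment.

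**Figure D4:**
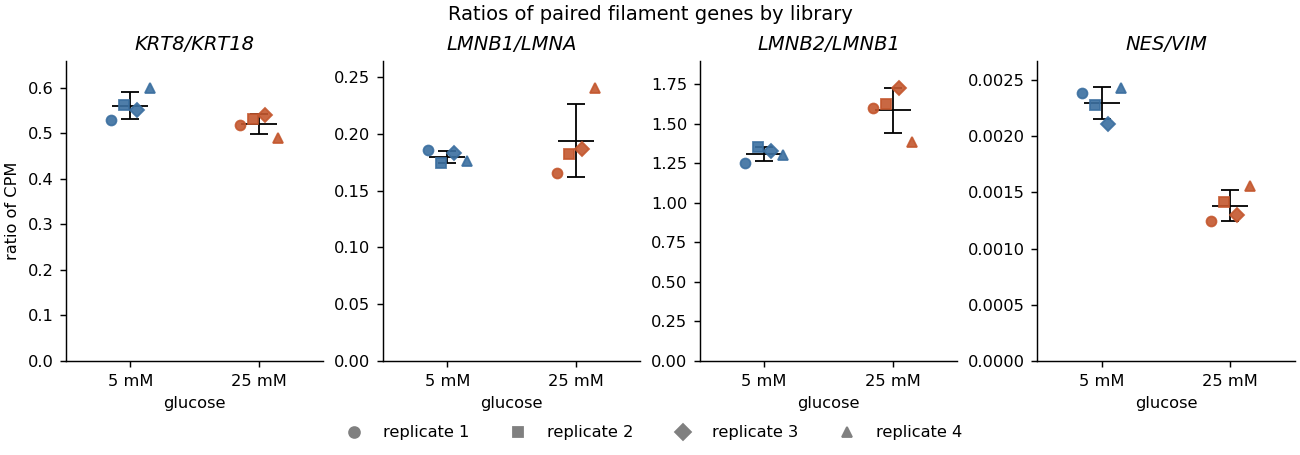
Ratio of CPM between paired filament genes in each library, with 1 point per library, the line at the group mean and the bar spanning 1 SD on each side (n = 4). The groups are apart for LMNB2/LMNB1 and NES/VIM and overlap for KRT8/KRT18 and LMNB1/LMNA.

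The rest of the filament family was mostly silent. Of 51 other keratin genes, 25 were in the table, 11 of those were at 0 in every library, and 3 reached a mean of 1 CPM, all of which rose and were the only ones of the 25 called (22.0% of all genes were called higher). KRT80, a type II keratin, went from 8.30 ± 1.60 to 19.7 ± 1.86 CPM (log2 change 1.16, limma adjusted p = 3.6e-04). KRT10, the acidic keratin of differentiated epidermis, went from 14.4 ± 1.41 to 22.2 ± 4.47 CPM (0.57, adjusted p = 0.0120), with high-glucose replicate 1 the highest at 28.4 CPM and a change of 0.45 without it. The hair keratin KRT81 went from 1.04 ± 0.188 to 2.06 ± 0.849 CPM (0.55, adjusted p = 0.0404), with high-glucose replicate 1 at 3.32 CPM. The call of KRT81 was lost when any of 5 libraries was left out (adjusted p = 0.0514 to 0.0939). These 3 keratins were higher where KRT8 and KRT18 were lower. Of 8 other type III, type IV and lens filament genes in the table, 2 reached 1 CPM. INA, the neuronal filament alpha-internexin, rose from 5.25 ± 0.384 to 12.2 ± 0.976 CPM (1.08, adjusted p = 3.1e-05), while BFSP1, the lens filament protein filensin, fell from 17.7 ± 0.964 to 10.5 ± 0.965 CPM (-0.70, adjusted p = 1.9e-04). The desmin and GFAP genes were below 1.3 CPM in every library.

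Filaments are tied to other structures by plakins and desmosomes. Among the partner lists that follow, called counts stand beside 22.0% higher and 24.8% lower over all genes, or 33.6% and 33.3% over genes of at least 5 CPM. Of 11 plakins and linkers, 2 rose and 2 fell, with a median log2 change of -0.19 (-0.01 over all genes). The 2 that rose, EPPK1 and TCHH, were low, with means of 0.651 and 0.314 CPM over the 8 libraries. Both were named after their values were seen. Of the 7 genes of at least 5 CPM, 2 were called, both lower. When only genes at that level were fitted, 1 of the 7 rose and 3 fell. TRIM16, a ubiquitin ligase, fell from 97.7 ± 2.62 to 53.5 ± 3.75 CPM (-0.86, limma adjusted p = 1.4e-05), and FAM83H, which organises keratin filaments, from 28.6 ± 1.13 to 17.0 ± 0.519 CPM (-0.72, adjusted p = 9e-06). Plectin (PLEC), the broadest filament linker and named after its values were seen, was at 310 ± 21.8 and 343 ± 39.2 CPM with overlapping groups (adjusted p = 0.261). Without high-glucose replicate 1, the list had 3 higher and 3 lower and its median was -0.059. Of 11 desmosome genes in the table, 1 rose and 4 fell: PKP4, an armadillo protein of cell junctions, rose from 30.0 ± 0.695 to 50.8 ± 3.40 CPM (0.74, adjusted p = 2.3e-05), and the cadherins DSC3 and DSG2 fell to means of 5.12 and 13.3 CPM, changes of -0.78 and -0.48. The number lower was 2 when low-glucose replicate 2 or 3 or high-glucose replicate 3 or 4 was left out, and 1 rose and 2 fell under median-of-ratios scaling.

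The lamina partners, proteins of the inner nuclear membrane, the LINC complex and lamin-bound chromatin, divided into 8 that rose and 4 that fell of 20, with a median log2 change of 0.06, and the counts lay near those shares over genes of at least 5 CPM. ANKLE2, which guides reassembly of the nuclear envelope after mitosis, rose from 54.3 ± 2.27 to 108 ± 4.83 CPM (0.97). TOR1AIP1 and TOR1AIP2, membrane activators of the ATPase torsin A, rose from 84.5 ± 1.33 to 123 ± 2.66 CPM (0.53) and from 60.7 ± 2.33 to 108 ± 5.20 CPM (0.82), and the limma adjusted p of these 3 was at most 8.7e-06. Without high-glucose replicate 1 the counts were 7 and 5. All 5 genes of lamin maturation, the farnesylation, cleavage and methylation that B-type lamins and prelamin A share in part, passed the test, where 66.9% of genes of at least 5 CPM did. FNTA, the alpha subunit of farnesyltransferase, rose from 97.5 ± 4.08 to 144 ± 8.12 CPM (0.56), the prelamin A protease ZMPSTE24 from 107 ± 3.62 to 130 ± 5.32 CPM (0.28) and the methyltransferase ICMT from 77.5 ± 2.06 to 87.6 ± 1.90 CPM (0.18), with limma adjusted p-values of at most 0.00104. The protease RCE1 was also higher (0.38) and FNTB, the beta subunit of farnesyltransferase, was lower (-0.30), both named after their values were seen. The call of FNTB was lost when any library other than high-glucose replicate 2 was left out, and with it under both other scalings, where 4 genes were higher and 0 lower. The number higher was 3 or 4 over the same leave-outs.

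Of 20 kinases and phosphatases known to act on vimentin, keratins or lamins, 12 rose and 4 fell, with a median log2 change of 0.30, where 33.6% of all genes of at least 5 CPM rose and 33.3% fell. The protein phosphatase 1 catalytic subunits PPP1CB and PPP1CC rose from 290 to 418 CPM (0.53) and from 149 to 205 CPM (0.46), with limma adjusted p-values of at most 2e-05. These values are transcript levels and say nothing of phosphorylation. Without high-glucose replicate 1 the counts were 14 and 3. The number lower was 2 without low-glucose replicate 1, 3 or 4, and 12 rose and 2 fell under median-of-ratios scaling.

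**Figure D5:**
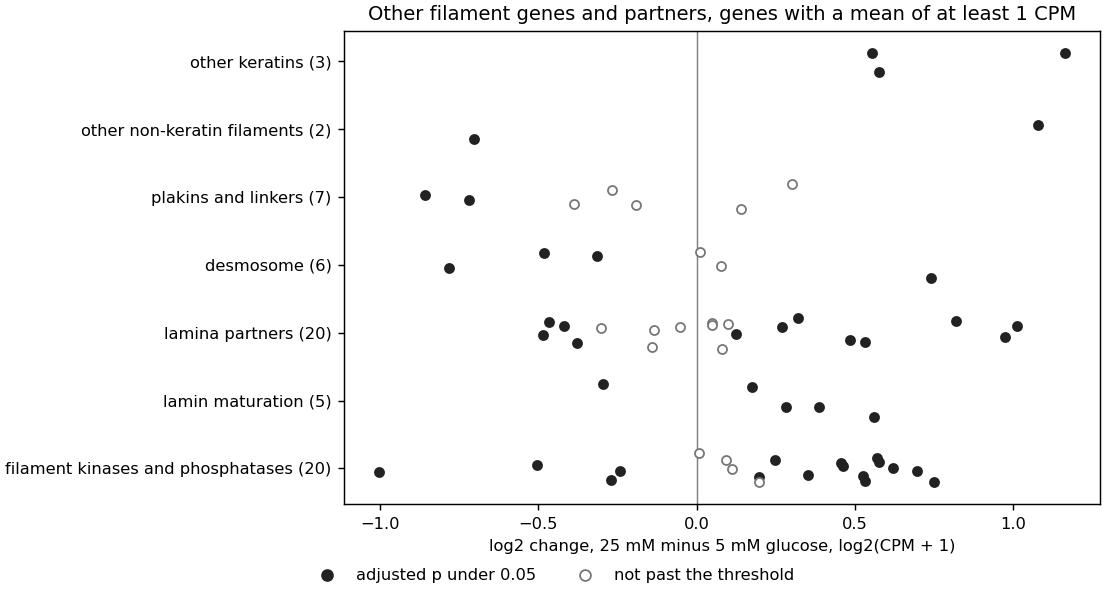
Log2 change at 25 mM against 5 mM glucose, on the log2(CPM + 1) scale, for the genes with a mean of at least 1 CPM in 7 lists of other filament genes and partners, with filled points past an adjusted p of 0.05. The 3 other keratins all lie to the right of 0, and the kinases and phosphatases have 12 filled points to the right and 4 to the left.

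Vimentin and keratins are themselves used as markers of mesenchymal and epithelial state, so the remaining markers of each are given beside them. Of 14 epithelial markers, 3 reached a mean of 1 CPM. Over all 14, 2 rose and 2 fell, where 22.0% and 24.8% of all genes did. Of those that fell, CLDN7 was under the floor in every high-glucose library and was named after its values were seen. The summed level of the 14 lay between 18.8 and 21.0 CPM in low glucose and between 17.1 and 19.4 CPM in high glucose. Leaving out low-glucose replicate 1, 3 or 4 or high-glucose replicate 2, 3 or 4 left 1 that rose, and leaving out high-glucose replicate 1 gave 3 that fell. Of the named ones, EPCAM, an epithelial adhesion protein, rose by a log2 change of 0.54 and the mucin MUC1 fell from 9.36 to 4.72 CPM (-0.86). Of 16 mesenchymal markers other than VIM, 4 rose and 9 fell, with a median log2 change of -0.43. COL1A1 and COL1A2, the chains of type I collagen, fell from 2145 to 861 CPM (-1.32) and from 18.7 to 4.96 CPM (-1.73), and the receptor PDGFRB fell from 1456 to 766 CPM (-0.93), with limma adjusted p-values of at most 1.2e-05. The 95% intervals of these 3 lay below that of VIM. Of the receptors, ERBB2 fell from 63.6 to 39.2 CPM (-0.69). Markers of blood, endothelial and fat cells, 5 of 8 in the table, summed to between 3.82 and 4.42 CPM in low glucose. In high glucose they summed to between 5.78 and 8.61 CPM. CD14 and PECAM1 rose and VWF and CDH5 fell, where 22.0% of all genes were called higher and 24.8% lower. All 5 had means under 5 CPM, and the part of these markers in the results was not tested.

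The genes whose pattern over the 8 libraries was most like that of VIM, by Pearson's r of log2(CPM + 1) among genes of at least 5 CPM, were the elongation factor gene EEF1A1 (r = 0.998), the tubulin gene TUBA1A (0.998) and ZDHHC4 (0.997). For KRT18 they were DCTD (0.998), MCRS1 (0.997) and SMIM19 (0.997), and for LMNB1 ACVR1 (0.986) and FBXW7 (0.968) were among them. The 8 points form 2 groups and share the departure of high-glucose replicate 1, so the coefficients are descriptions only.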

How the data were processed

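RNA of 8 libraries of MDA-MB-157 cells was sequenced on an Illumina instrument, 4 per glucose level, grouped by the labels. The authors deposited 1 table of CPM, scaled by them with TMM factors from edgeR per the labels and the study's methods. The submitters' processing notes name hg38, whereas the methods, written for tumors, name TopHat and hg19. The counting tool and its use of strand are not given in the sources used here. Whole reads could not be recovered, since 72.4% to 73.9% of values below 200 reads lay within 0.01 of a whole read, so no count test was run and reads are estimates from each library's smallest step.

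Of 21077 rows, 18 pseudoautosomal Y copies, all identical to the X copies, were left out. The 21059 genes, 856 of them at 0 throughout, were compared as log2(CPM + 1) with limma 3.58.1 in R 4.3.3 (lmFit, eBayes with its mean-variance trend, no covariate, 2-sided, Benjamini-Hochberg over all genes, threshold 0.05). Fold changes on this scale understate the change of low genes. Ratios used an exact permutation test. The steps were tested on simulated data. The alternatives were a pseudocount of 0.1, only genes of at least 5 CPM, 2 other scalings, removal of the trend with transcript length, eBayes without its trend, a replicate block and leaving out each library.

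Gene positions and upstream sequence are from RefSeq tables on GRCh38.p14. Transcript lengths, shared 31-base words and exon overlaps are from canonical transcripts of GENCODE release 44 mapped to GRCh37. Both describe the annotation, not the authors' alignment. The members and the 11 other gene lists were chosen with earlier results of these data known. Named were all members, other filament genes of at least 1 CPM, in each other list at most the 3 genes of at least 5 CPM with the smallest adjusted p, the 3 genes most like VIM, KRT18 and LMNB1, pseudogene rows of at least 1 CPM and VIM-AS1, of which 2 genes are not reported here. Genes named outside this rule are marked or serve as checks of the label and the cells (ESR1, PGR, CDH1, CLDN3, PTPRC, CD14, PECAM1, VWF, CDH5).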

Additional observations from a re-analysis of the deposited data

Results flagged for a closer look

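Within each group of 4, the highest or lowest library was set against the rest for 102 groups of values. Independent groups would give about 5.1 flags by chance at the 95% level. There were 10, of which 7 fell on high-glucose replicate 1 and 3 on low-glucose replicate 4. The groups share libraries, and EEF1A1, TUBA1A and ZDHHC4 were picked for their likeness to VIM over these same libraries. Their flags repeat that of VIM, so the 10 cannot be read against the number from chance.

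High-glucose replicate 1 lay above the other 3 libraries of its group for VIM, at 3282 CPM against 2856 to 2869. The same library was the highest for KRT81, at 3.32 CPM against 1.51 to 1.81, and for the phosphatase gene PPP1CB, at 444.5 CPM against 408 to 411. It was the lowest for TOR1AIP1, at 118.7 CPM against 123.8 to 124.2. Among the genes most like VIM it stood highest for EEF1A1, at 11506 CPM against 9639 to 9817, for TUBA1A, at 536 CPM against 438 to 448, and for ZDHHC4, at 58.9 CPM against 47.3 to 48.3. This library also had the trend with transcript length described above, and the part of that trend in these values was not tested.

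Low-glucose replicate 4 stood apart for KRT19, at 0.0728 CPM where the other 3 were at 0, a difference of 1 read. It was also highest for the pseudogene KRT8P12, at 8.38 CPM against 8.07 to 8.12, and for estimated reads, at 12104244 against 10389651 to 10622968.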

How the results depend on the processing

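Of 843 values computed under the alternatives, 804 kept their direction and their side of the threshold or, for counts, stayed within 1.5 times. VIM, NES, KRT8, KRT18 and LMNB2 kept their calls in every alternative run, and KRT19 passed in none. The number of filament genes called higher was 3, and 1 to 3 when single libraries were left out, with 1 without low-glucose replicate 1 or 4 or high-glucose replicate 1. KRT7 ranged from 0.37 to 0.53 when single libraries were left out and lost its call in 6 of 8 cases. LMNB1 ranged from 0.10 to 0.16 in the same way, and 4 of 8 cases lost the call. LMNA ranged from -0.030 to 0.12, the pseudogene KRT8P12 from -0.034 to 0.066, both negative only without high-glucose replicate 1, and the log2 ratio of LMNB1 to LMNA from -0.013 to 0.16, negative only without high-glucose replicate 4. With the trend of each library with transcript length removed, SYNM was called lower (-0.12, limma adjusted p = 0.0379). The causes were not tested. Among 36 other named genes, 516 of 538 values were the same in this sense, 12 lost the call and 9 gained it.

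Same-numbered libraries showed no shared deviation, with correlations of -0.04 to 0.07, against -0.136 to 0.075 for libraries of different number. Whether the libraries were paired by design is not stated, and these correlations cannot settle it. With the number as a replicate block, 8921 genes were called in place of 9849, the change of LMNB1 stayed at 0.14 with an adjusted p of 0.0562, KRT81 lost its call (0.55, adjusted p = 0.0935), and no other of the 10 genes changed its call. At this depth, KRT7 and KRT19 were too low for a firm statement.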

Other observations

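The spread between replicates differed by group for several of the filament genes. The coefficient of variation of VIM was 0.696% at low glucose and 7.09% at high glucose. For KRT18 it was 2.08% and 10.7%, for KRT8 4.55% and 11.6%, for LMNA 2.85% and 12.6% and for SYNM 3.05% and 9.93%. NES, at 6.40% and 7.33%, and LMNB2, at 3.90% and 3.81%, had like spreads in both groups. High-glucose replicate 1 was at 1.20 to 1.23 times the mean of the other 3 for KRT8, KRT18 and LMNA and at 0.814 times for SYNM, whose transcript of 7352 bases is the longest of the 10. These differences in spread were not tested.

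Among the plakins, the giant transcripts behaved differently by library. DST, which links filaments to adhesion sites, was at 88.1 CPM in high-glucose replicate 1 and 152 to 169 CPM in the other 3, against 157 to 169 CPM at low glucose. MACF1, a linker of actin and microtubules, was at 119 CPM in that library and 173 to 193 CPM in the others, against 213 to 218 CPM at low glucose. The limma adjusted p was 0.317 for DST and 0.066 for MACF1. Both genes were named after their values were seen.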
